A study of Mus musculus with 16 samples.

Results

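Monoubiquitylated histone H2B (H2Bub1) was mapped by chromatin immunoprecipitation and sequencing (ChIP-seq) in wild-type (WT) and Atxn7l3-/- (KO) mouse embryonic stem cells (mESCs), and each genotype was deposited as 1 list of broad peaks. All autosomal peaks of both lists were taken, 40742 of WT and 47869 of KO. These 88611 peaks are part of the 245651 peaks in the 8 lists of the series, which also hold H2Bub1 in embryonic fibroblasts (MEFs) and RNA polymerase II (Pol II) in both cell types. The peaks were set against the 20807 autosomal protein-coding genes of the GENCODE M21 annotation, on the same genome build (mm10, GRCm38).

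The WT cells were Atxn7l3+/+ and the KO cells Atxn7l3-/-, both of the strain DBA/2 x C57BL/6. Both were grown for 2 passages on feeder cells and then without them, with leukaemia inhibitory factor, 15% foetal calf serum, PD0325901 at 1 µM and CH99021 at 3 µM, which inhibit the kinases MEK and GSK3. According to the study's methods the lines were derived from individual blastocysts of heterozygous matings, so that each represents a single embryo. The MEFs, used for comparison only, came from embryos of both genotypes at E10.5 and were grown with 10% foetal calf serum. The same methods give a null allele in which a run of exons lay between LoxP sites, and N-ethylmaleimide, which blocks deubiquitylation, in all chromatin buffers. There was 1 library per genotype, so the differences below rest on single libraries, without p-values or a check by replicates. The 95% intervals are exact and cover counting error over genes or peaks only, and genes of 1 library are not replicates. The sequencing depth of the lists is unknown, and in such bulk chromatin more cells with the mark cannot be told apart from more of the mark per cell.

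H2Bub1 is placed on nucleosomes of transcribed genes by the ligase RNF20/RNF40 with the conjugating enzyme UBE2B, recruited with elongating Pol II by the PAF complex. It is removed by USP22 and related proteases, which act in a module with ENY2 and the adaptor ATXN7L3, either within the coactivator SAGA or apart from it. The mark is known for covering the bodies of active genes from shortly after the transcription start site, and for its link to methylation of histone H3 by COMPASS and DOT1L. In stem cells most genes of metabolism, translation and pluripotency are active, whereas olfactory receptor or keratin genes are silent.

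Promoters on which the peaks moved to opposite sides are shown first. The windows run from 250 bases before to 50 bases after the start of each gene, taken from RefSeq on GRCm38.p6, and capitals mark TATAAA and CCAAT in either direction. In the following 4 windows of replication-dependent histone genes, H2Bub1 peaks covered 37.7% of the bases at Hist1h1c and 100% at each of the others in WT, and 0% in KO. Hist1h1c and Hist1h1a encode linker histones, Hist1h3h an H3 and Hist1h2ai an H2A.
Hist1h1c, chr13:23738557-23738856, plus strand: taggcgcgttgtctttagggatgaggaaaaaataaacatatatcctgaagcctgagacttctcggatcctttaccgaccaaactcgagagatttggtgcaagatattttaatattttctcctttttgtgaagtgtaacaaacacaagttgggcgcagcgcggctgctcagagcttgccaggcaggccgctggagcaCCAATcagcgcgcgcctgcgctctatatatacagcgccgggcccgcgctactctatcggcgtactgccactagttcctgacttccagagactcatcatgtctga
Hist1h1a, chr13:23763418-23763717, plus strand: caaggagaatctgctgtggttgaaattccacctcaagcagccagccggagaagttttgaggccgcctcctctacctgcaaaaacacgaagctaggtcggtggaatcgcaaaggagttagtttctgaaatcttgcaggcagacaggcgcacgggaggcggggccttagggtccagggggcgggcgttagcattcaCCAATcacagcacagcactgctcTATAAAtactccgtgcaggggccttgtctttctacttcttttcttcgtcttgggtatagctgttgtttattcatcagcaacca
Hist1h3h, chr13:21717378-21717677, plus strand: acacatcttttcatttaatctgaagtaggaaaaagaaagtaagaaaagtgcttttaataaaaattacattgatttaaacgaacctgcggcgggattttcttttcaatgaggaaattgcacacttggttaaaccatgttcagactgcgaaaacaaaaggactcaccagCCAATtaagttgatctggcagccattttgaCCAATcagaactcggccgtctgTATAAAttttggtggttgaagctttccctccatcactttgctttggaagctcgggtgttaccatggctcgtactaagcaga
Hist1h2ai, chr13:21716162-21716461, plus strand: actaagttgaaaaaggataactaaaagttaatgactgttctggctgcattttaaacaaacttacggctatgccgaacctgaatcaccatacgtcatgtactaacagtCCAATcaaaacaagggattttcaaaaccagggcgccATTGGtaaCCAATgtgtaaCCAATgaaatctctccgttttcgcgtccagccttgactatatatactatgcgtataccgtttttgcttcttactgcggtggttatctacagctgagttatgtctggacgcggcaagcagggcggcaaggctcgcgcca

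The next windows belong to Pex16, a peroxisome assembly factor, and Phospho1, a phosphatase of mineralising cells. They are shown because both genes passed from no peak in WT to a peak over the whole gene in KO, and the windows themselves passed from 0% to 100% in peaks.
Pex16, chr2:92374426-92374725, plus strand: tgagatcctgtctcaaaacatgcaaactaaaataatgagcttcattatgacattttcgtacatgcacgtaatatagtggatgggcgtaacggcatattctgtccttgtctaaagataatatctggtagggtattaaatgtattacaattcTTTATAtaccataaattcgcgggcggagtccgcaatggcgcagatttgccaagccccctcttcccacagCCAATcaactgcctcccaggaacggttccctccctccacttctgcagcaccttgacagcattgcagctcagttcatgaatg
Phospho1, chr11:95824250-95824549, plus strand: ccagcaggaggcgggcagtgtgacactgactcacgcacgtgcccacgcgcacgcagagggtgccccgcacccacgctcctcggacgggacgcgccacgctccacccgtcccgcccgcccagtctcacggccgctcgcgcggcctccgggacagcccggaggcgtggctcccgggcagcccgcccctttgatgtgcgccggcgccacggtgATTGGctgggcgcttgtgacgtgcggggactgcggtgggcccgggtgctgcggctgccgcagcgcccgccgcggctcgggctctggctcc

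TATAAA stood on either strand in 34 of the 61 histone windows that could be matched to RefSeq by position (55.7%, 42.4 to 68.5%), out of 67 histone genes, against 13.6% of all 32817 windows. CCAAT stood in 52 of them (85.2%, 73.8 to 93.0%), against 37.4% of all windows. The motifs can share at most 1 base, and a match is a description of the window only.

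The targeted gene was looked at first. Atxn7l3 (chromosome 11, 102289300 to 102296631, minus strand) lay inside peaks over 100% of its body in WT and 62.5% in KO. The loss sat in the middle of 3 equal parts of the gene, with 100% covered in WT and 6.75% in KO, whereas the 5′ part had 80.7% and the 3′ part 100% in KO. Absence of DNA in the null allele and absence of the mark cannot be told apart in a peak list. The cells were also checked against their markers. All 10 pluripotency markers, among them the transcription factor genes Pou5f1, Sox2 and Nanog, held a peak in both lists. Fibroblast markers held a peak at 2 of 10 genes in WT and 3 of 10 in KO, with Col1a2, Thy1, Col3a1, Postn, Prrx1 and Twist2 at 0 in both. Endoderm markers passed from 0 to 2 of 8 and mesoderm markers from 4 to 2 of 7, and neural (3 of 7) and trophoblast markers (4 of 7) had equal counts in both.

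To ask how far the mark spread along the genome, the bases inside peaks were summed over the autosomes. Peaks covered 2.90% of the autosomal bases in WT and 6.04% in KO, a ratio of 2.09. With peaks of a −log10 q of 3 or more alone, the ratio was 3.61. Most WT territory was held, since 80.7% of the WT bases lay inside KO peaks, whereas 38.7% of the KO bases lay inside WT peaks. Widened and separate peaks both contributed. KO peaks that touched a WT peak were 43.3% of the KO list but held 75.9% of its bases, with a median width of 3080.5 bp, against 1154 bp for the WT peaks they touched. KO peaks away from any WT peak were more numerous (27137) but narrow, with a median of 953 bp, and held 24.1% of the bases. Part of the widening was joining: 5829 KO peaks each lay over 2 or more WT peaks and together took in 16832 WT peaks, 41.3% of that list. The KO peak that took in the most was 128 kb wide and lay over Nxn, the gene for nucleoredoxin, with 24 separate WT peaks under it.

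Long domains multiplied accordingly. Peaks of 10 kb or more numbered 737 and 3058, and 4 WT and 76 KO peaks reached 50 kb. The widest WT domains lay over Kat6b (67 kb), a histone acetyltransferase gene, Jade1 (54.0 kb), which encodes a scaffold of such enzymes, Actn1 (53.2 kb), for an actin crosslinker, and Ago2 and Jarid2 (both 50 kb), for the slicing Argonaute and a Polycomb partner. The KO domains that headed the list lay over other genes, namely Cmip (163 kb), Dab2ip (135 kb), Nxn (128 kb), Agap1 (123 kb) and Rptor (96.1 kb), the last encoding the mTORC1 subunit raptor. At the 5 genes with the widest WT domains the covered share itself stayed within 10 points, for example 65.2% in WT and 69.6% in KO at Kat6b and 91.1% and 90.3% at Jade1. At Nxn it rose from 30.8% to 98.6%, at Dab2ip from 43.5% to 87.9% and at Agap1 from 15.6% to 39.6%.

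For each gene the covered share, the percentage of the gene body inside peaks, was compared between the lists, and a difference of 10 percentage points or more was called a gain or a loss. Of the 20807 genes, 6805 gained coverage (32.7), 616 lost it (2.96) and 6153 with a peak in either list stayed within 10 points (29.6), these figures in brackets being percentages of all genes tested. The remaining 7233 genes (34.8) had no peak in either list. A peak was present at 11592 genes in WT (55.7) and 12922 in KO (62.1), and 1982 genes carried the mark in KO only (9.53) as against 652 that did so in WT only (3.13). The gains were mostly extensions of genes that already carried the mark. The gained genes had a median covered share of 15.6% in WT and 49.3% in KO, and 57.8% of them (56.6 to 59.0%) had a Pol II peak at the promoter in WT, against 48.0% of the genes within 10 points, 48.4% of the lost genes and 2.14% of those with no H2Bub1 peak. Genes in KO only had little coverage, with a median share of 6.72%, and 22.1% of them (20.3 to 24.0%) had such a Pol II peak. The number of genes covered over their whole length was 322 in WT and 1073 in KO. The KO list was also reduced to its strongest peaks until it covered as many bases as the WT list. This removes the overall difference by construction, and 2654 genes then gained and 2515 lost.

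The kept genes lay mostly at 2 extremes. Of the 6153, 574 (9.33%) were at least 90% covered in WT, where a gain of 10 points has no room, and 3565 (57.9%) were under 10% covered in both lists. Seen by the WT level, gains were most frequent where the gene was partly covered. They made up 39.3% of genes with a peak but under 10% coverage in WT, 68.7% from 10 to 25%, 71.6% from 25 to 50%, 64.7% from 50 to 75% and 47.1% from 75 to 90%. Losses, which need at least 10% of coverage in WT, were made by 6.75% of genes at 10 to 25% and 13.3% of those at 90% or more. The lost genes were short and rich in G and C, with a median length of 6.64 kb and a GC content of 53.2%, against 19.2 kb and 47.4% for the gained genes. The fold enrichment of the peaks, the authors' pileup over local background averaged over a broad peak, differed far less than the covered length. Over the 10940 genes with a peak in both lists its median was 2.82 in WT and 3.06 in KO, a median log2 difference of 0.07 (0.07 to 0.08).

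Gains without any WT peak in the gene body were read from the 5 genes of 5 kb or longer with the most complete coverage in KO only. Erg28, a sterol synthesis scaffold gene, Pex16 and Phospho1 each passed from 0% to 100%. Mettl17, for a mitochondrial ribosome assembly factor, passed to 87.5%, and Prr15l to 86.8%. The RefSeq promoter window of Erg28, outside this gene body, already had 32.0% of its bases in WT peaks. In the other direction the 5 most covered WT-only genes of that length passed to 0% in KO, namely Obox6 (48.5% in WT), an oocyte homeobox gene, Zfp503 (43.8%), Inhbe (43.6%), an inhibin subunit gene, Tpsg1 (39.7%), a mast cell protease gene, and Gm29776 (38.0%). Among genes of 5 kb or longer that kept a peak, the losses that headed the list were Ptger1, a prostaglandin receptor gene, from 80.7% to 9.08%, and Hspa8, the constitutive HSP70 chaperone, from 96.7% to 30.9%. Garem2 followed, from 58.3% to 6.98%, and Pla2g4b, a phospholipase gene, from 57.3% to 11.4%. With peaks of a −log10 q of 3 or more alone, these 2 genes rose instead, Garem2 by 6.98 points and Pla2g4b by 8.55.

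Base composition moved with these changes and is given here because it touches every comparison below. The median GC content was 53.2% in WT peaks with no KO peak, 52.1% in all WT peaks, 49.2% in all KO peaks and 48.7% in KO peaks with no WT peak. When the 13574 genes with a peak were split into 5 classes of equal size by the GC content of the gene, the ratio of covered bases, KO over WT, was 2.77 in the class of lowest GC, then 2.63, 2.07, 1.68 and 1.35 in the highest. Gains were made by 36.6% of the genes in the lowest class and 48.5% to 55.9% in the others. Losses went from 0.479% to 1.14%, 2.54%, 5.30% and 13.2% with rising GC. The order of the ratios stayed when the KO list was reduced to its strongest peaks until it covered as many bases as the WT list (8624 peaks, 18.0% of the KO list). It then ran from 1.31 in the lowest class to 0.791 in the highest. The part of base composition in the results was not tested.

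**Figure D1:**
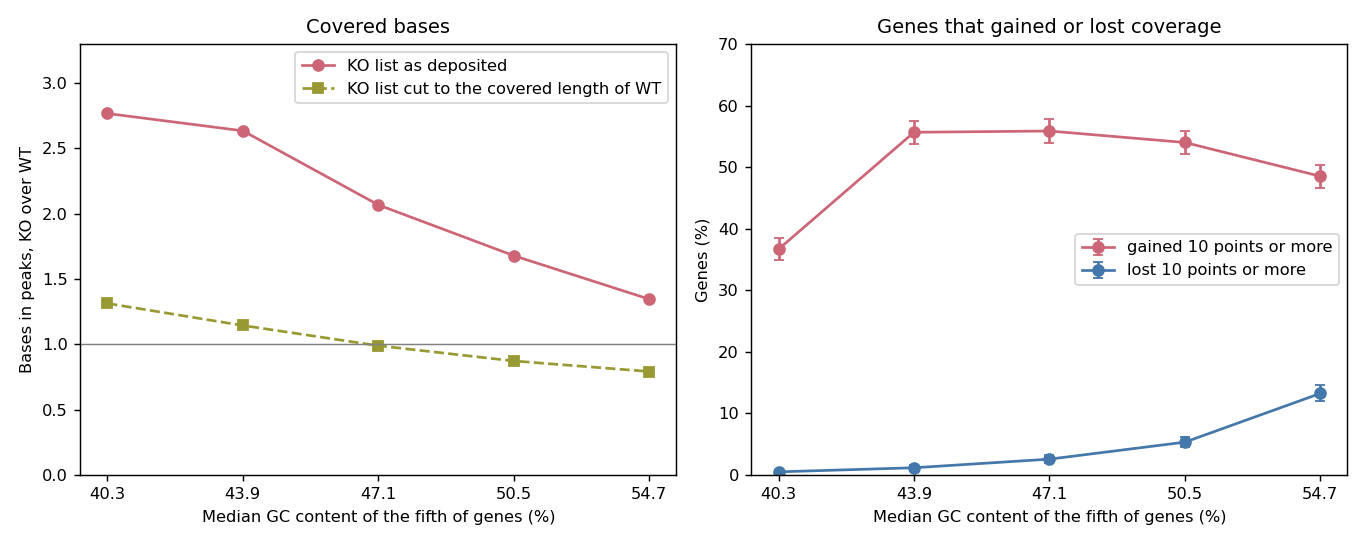
The left panel plots the ratio of bases in peaks, KO over WT, against the median GC content (%) of 5 equal classes of genes with a peak, with the KO list as deposited and reduced to the covered length of WT, and the right panel the percentage of genes that gained or lost 10 points or more with exact 95% intervals. The ratio falls from 2.77 to 1.35 with rising GC, and the lost genes rise from 0.479% to 13.2%.

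Gene length was examined next. Short genes came close to full coverage, and longer genes gained more bases per gene. Among genes with a peak in both lists, the median covered share was 75.8% in WT and 100% in KO for genes under 2 kb, and 60% and 91.3% for genes of 2 to 5 kb. It was 24.8% and 51.2% from 10 to 20 kb, 5.67% and 19.7% from 50 to 100 kb, and 0.875% and 3.63% at 200 kb or more. In kilobases the covered length per gene, summed over its peaks, was nearly the same in WT from 10 to 200 kb of gene length. Its median was 3.58 to 4.02 kb, and 2.84 kb in the longest class. In KO that median grew with the gene, from 7.24 kb at 10 to 20 kb to 17.7 kb at 100 to 200 kb. It stood at 11.7 kb in the longest class.

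As a ratio of covered bases over all genes of a class, KO over WT went from 1.32 under 2 kb through 1.42, 1.51, 1.64, 1.82, 2.17 and 2.55 to 2.72 at 200 kb or more. Gains of 10 points or more were most frequent at middle lengths, with 40.8% (39.2 to 42.4%) of genes of 10 to 20 kb against 15.3% under 2 kb and 11.8% in the longest class (57.5%, 48.3% and 18.5% of the genes with a peak in either list), where 10 points are over 20 kb of new coverage. Losses were confined to shorter genes at this threshold, with 6.58% under 2 kb, 0.248% from 50 to 100 kb, and none of the 1419 genes of 100 to 200 kb or the 953 longer ones. The increase of the ratio with length did not hold when the KO list was reduced to the covered length of the WT list. It was then 0.876 under 2 kb, between 0.940 and 1.05 in the 6 classes from 2 to 200 kb, and 0.757 in the longest. Losses, which this reduction can only add to, were then made by 6.50% of genes from 50 to 100 kb. They were 5.00% from 100 to 200 kb and 1.36% in the longest class. Median GC content also went down with length, from 50.6% to 41.6%. Within the middle class of GC content the ratio was 2.23 in the 29 genes under 2 kb, 1.59 from 2 to 5 kb and 2.57 from 100 to 200 kb.

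**Figure D2:**
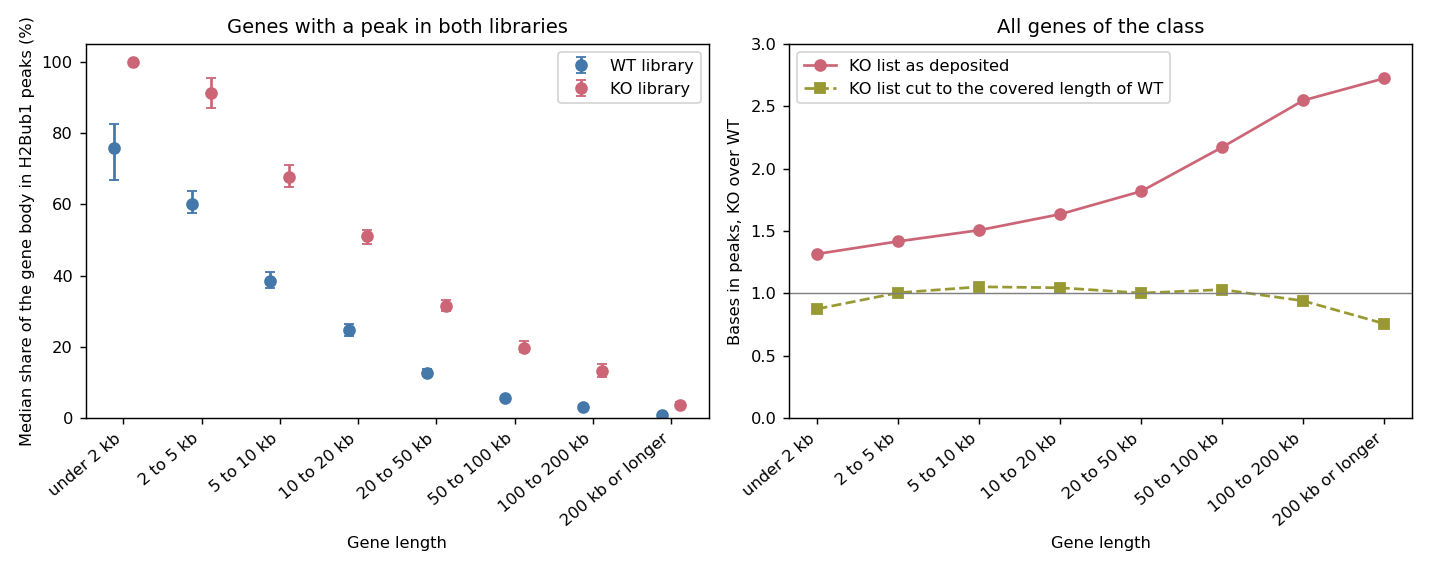
The left panel plots the median share of the gene body in peaks (%) with exact 95% intervals for genes with a peak in both libraries, by class of gene length, and the right panel the ratio of bases in peaks, KO over WT, over all genes of the class. The ratio climbs from 1.32 to 2.72 with the KO list as deposited and stays between 0.757 and 1.05 when that list is reduced to the covered length of WT.

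Genes at the head of each length class show the sizes involved. Naxe (1.98 kb), an NAD(P)HX epimerase gene, passed from 0% to 100%, and Sppl2c (2 to 5 kb), a presenilin-like protease gene, from 4.07% to 97.8%. With the KO list reduced to the covered length of WT, Sppl2c changed by -4.07 points. Vkorc1l1 (44.7 kb), a vitamin K epoxide reductase gene, rose from 1.96 kb to 39.4 kb covered. Rai1 (94.2 kb), a transcriptional regulator, rose from 24.5 to 83.5 kb, and Tspan9 (182 kb), a tetraspanin gene, from 18.0 to 142 kb. More of Tspan9 was newly covered than the widest WT domain of the genome spanned, 67 kb at Kat6b. In the class of 200 kb or more the gene with the largest gain was Gm20388, a read-through model of 4435 kb that spans other genes, with 21.9% in WT and 28.3% in KO.

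To see where in the gene the mark was taken up, the 12740 genes of 3 kb or longer with a peak were cut into 3 parts of equal length, named 5′, middle and 3′ in the direction of transcription. The 5′ part gained most. Its mean covered share was 26.7% in WT and 50.3% in KO, against 19.0% and 32.6% for the middle part and 18.2% and 25.3% for the 3′ part. These are ratios of 1.88, 1.71 and 1.39. In WT the middle and the 3′ part were nearly level, whereas in KO coverage stepped down from each part to the next. A gain of 10 points or more was made by 58.3% of the 5′ parts (57.4 to 59.2%), 38.0% of the middle parts and 27.8% of the 3′ parts. Of the 6395 gained genes in this set, 60% (58.8 to 61.2%) had their largest gain in the 5′ part, 24.8% in the middle and 15.2% in the 3′ part.

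The profile along 20 equal steps of the gene gave the same picture at finer scale. The first step had 36.7% of its bases covered in WT and 65.6% in KO, and the last step 17.1% and 22.3%. WT coverage hardly changed over the 3′ portion of the gene, while KO coverage sloped down towards it. Beyond the 3′ end, the first kilobase had 13.7% in WT and 18.7% in KO. Upstream of the start, the first kilobase had 16.1% and 37.8%, and the kilobase before it 8.92% and 22.2%, ratios of 2.35 and 2.49 that lie above the ratio of the 5′ part. Part of the upstream coverage belongs to neighbouring genes, but in the 4680 genes at least 5 kb from another gene the first upstream kilobase still had 10.0% and 26.6%. In those genes the first step of the body had 35.2% and 61.4% and the last step 9.91% and 14.1%.

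**Figure D3:**
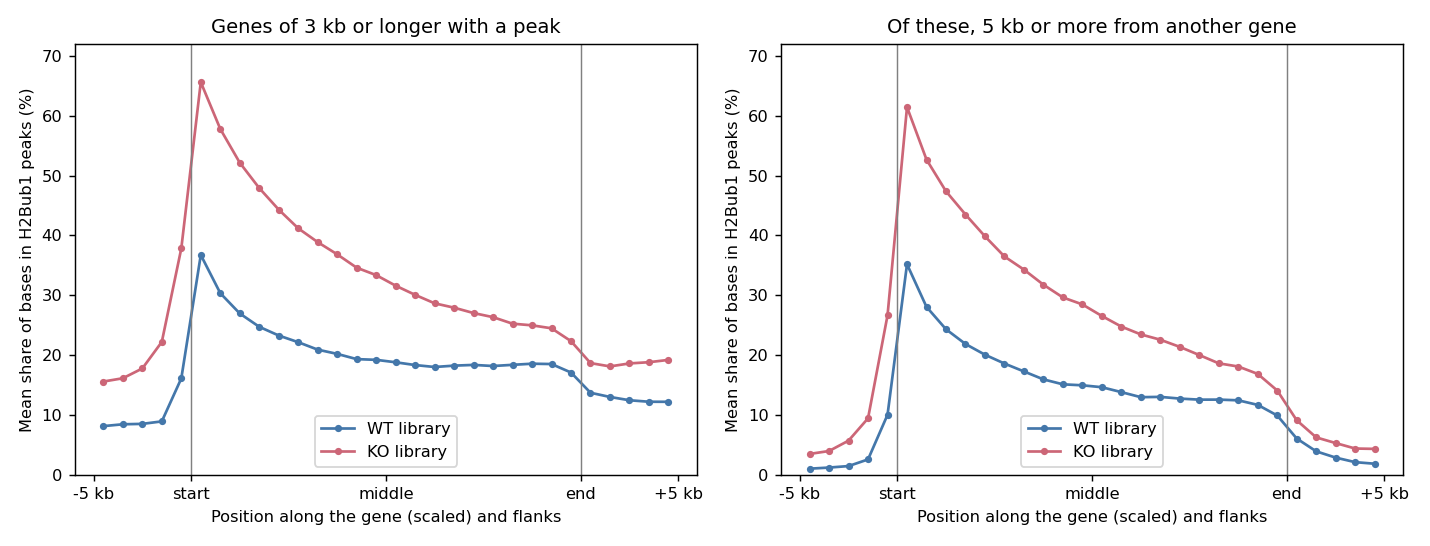
The mean share of bases in H2Bub1 peaks (%) is plotted for 20 equal steps from gene start to gene end and for 5 kb on either side in steps of 1 kb, for 12740 genes of 3 kb or longer with a peak and for the 4680 of these that lie 5 kb or more from another gene. The KO line lies above the WT line throughout, with the widest gap at the start, where the first step has 36.7% in WT and 65.6% in KO.

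With fixed distances the lead over the middle was gone in the ratio but not in points. The first 3 kb rose by 29.0 points and the stretch between the ends by 13.1. A gain of 10 points or more was made by 59.1% and 44.5% of them. In the 10057 genes of 10 kb or longer with a peak, the first 3 kb had 33.6% covered in WT and 62.6% in KO, the last 3 kb 15.0% and 19.4%, and the stretch between them 15.3% and 28.4%, ratios of 1.86, 1.29 and 1.85. Summed over all bases the stretch between had the larger ratio, 2.20. The ratio of the 5′ part lay above that of the 3′ part in every class of gene length. It was 1.52 against 1.39 from 3 to 5 kb and 1.64 against 1.29 from 5 to 10 kb. From 10 to 20 kb it was 1.83 against 1.34, and from 20 to 50 kb 1.99 against 1.41. From 50 to 100 kb it was 2.28 against 1.75, and from 100 to 200 kb 2.77 against 1.83. At 200 kb or more it was 3.29 against 2.26. From 50 kb on, the middle part had as large a ratio as the 5′ part up to 200 kb, with 2.32 against 2.28 from 50 to 100 kb and 2.77 for both from 100 to 200 kb. GC content had medians of 47.0%, 45.8% and 46.7% in the parts. In the 2 lowest of the 5 classes of GC content the middle part had a larger ratio than the 5′ part, with 2.87 against 2.41 and 2.45 against 2.30, and in the other 3 the 5′ part had the larger one. When the KO list was reduced to the covered length of WT, the 5′ part had 35.4% and the ratios became 1.32, 0.977 and 0.656, so that the 5′ part stayed above WT and the middle and 3′ parts lay below it.

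Some genes changed in opposite directions at their ends. Coverage went up by 10 points or more in the 5′ part and down by as much in the 3′ part in 672 genes (5.27%, 4.89 to 5.68%), and the reverse took place in 86 (0.675%, 0.540 to 0.833%). The edges of the domains themselves were compared at 16949 places where a KO domain took in WT peaks inside a gene. The KO domain reached beyond the WT one by a median of 194 bp on the upstream side and 218 bp on the downstream side, and 52.0% (51.2 to 52.7%) reached further downstream. Among the 5526 whose WT part began within 2 kb of the start site, the medians were 222 and 450.5 bp and 58.4% (57.1 to 59.7%) reached further downstream. In the 3′ part of the gene the balance lay on the upstream side, with 46.6% (45 to 48.2%) reaching further downstream. Introns took up more than exons in proportion, since exons went from 21% to 29.6% (ratio 1.41) and introns from 8.53% to 18.7% (ratio 2.19), at a GC content of 48.8% and 43.8%.

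Pathways were then compared by the share of their genes that gained. Among the 13574 genes with a peak in either list, 50.1% gained (49.3 to 51.0%). Most lists of chromatin and housekeeping genes hold few genes without a peak, so for them this is the closer reference. The gained share of each list was set against 32.7% of all genes, which include those without a peak. It lay above that in 36 of 54 gene lists, namely in 10 of 11 lists of chromatin and transcription, 15 of 17 housekeeping lists, 6 of 8 of stem cell and signalling genes, 5 of 9 developmental lists and none of 9 tissue-restricted lists. The list of the tricarboxylic acid cycle had the largest gained share (86.7%). Of its 15 genes, 13 gained and none lost, for example Pdhb of the pyruvate dehydrogenase complex, from 16.7% to 61.7%, and Cs, citrate synthase, from 20.3% to 56.7%. Mdh2 kept its coverage, with 85% in WT and 84% in KO. With the KO list reduced to the covered length of WT, 46.7% of the list gained, below the 58.5% of oxidative phosphorylation.

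Of the 78 mitochondrial ribosomal protein genes, 65 gained (83.3%) and 1 lost, and the number with a peak went from 70 to all 78. Their median share was 21.5% in WT and 57.3% in KO. Mrpl34 passed from 0% to 91.4% and Mrpl14 from 8.54% to 98.3%. Of the 82 genes of oxidative phosphorylation, 58 gained (70.7%) and 1 lost, with medians of 25.7% and 69.5%. Here Cox7a1, a cytochrome oxidase subunit gene, passed from 0% to 100% and Ndufv3 of complex I from 3.86% to 100%. Ndufb8 fell from 70.5% to 50.8%, and with the KO list reduced to the covered length of WT Ndufv3 changed by -3.86 points. Proteasome genes were alike, with 38 of 49 gained (77.6%), among them the activator subunit gene Psme2, from 0% to 91.5%. These lists hold short genes of average GC content, with median lengths of 7.90, 7.57 and 11.8 kb. They also stayed high with the KO list reduced to the covered length of WT, with 48.7%, 58.5% and 53.1% gained, against 12.8% of all genes.

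Cytosolic ribosomal protein genes went differently from their mitochondrial counterparts. A peak was present at 77 of 79 in WT and all 79 in KO, but 54 were already at least 90% covered in WT and 11 gained while 12 lost. Rpl27a fell from 100% to 71.8%, with 15.3% left in its 3′ part, Rpl4 from 100% to 73.4% and Rps16 from 100% to 81.7%. The peaks on these genes were also lower, at a median of 5.05-fold in WT and 4.49-fold in KO, a median log2 difference of -0.14 where all genes had 0.07. Glycolysis was split, with 9 of 19 genes gained and 5 lost. Eno3 rose from 34.5% to 75.4% and Pfkm from 11.6% to 41.2%, whereas Aldoc fell from 59.0% to 32.1% and Gapdh from 100% to 82.7%. With the KO list reduced to the covered length of WT, 5.26% of the glycolysis genes gained and 42.1% lost, against 12.8% and 12.1% of all genes. In 45 of 53 lists of 5 or more members, marker lists included, the covered share of the 5′ part changed upwards by more than that of the 3′ part. Over the glycolysis genes the 5′ part had 54.2% in WT and 84.3% in KO, and the 3′ part 51.5% and 45.2%. Over the oxidative phosphorylation genes both ends were higher in KO, with 41.9% and 84.0% in the 5′ part and 27.0% and 45.3% in the 3′ part.

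Among the genes of the H2B ubiquitin cycle itself, counts were small. Of the 10 genes of the ligase and the PAF complex 5 gained (50%, 18.7 to 81.3%, an interval that holds the 32.7% of all genes) and none lost. Ube2b rose from 39.5% to 77.5%, Leo1 from 15.6% to 46.1% and Paf1 from 39.0% to 66.6%. The ligase genes were within 10 points, with Rnf20 at 2.42% in WT and 8.25% in KO and Rnf40 at 78.9% and 79.4%. On the protease side, Atxn7l3b, a paralogue of the adaptor gene, rose from 57.8% to 74.2%. Usp22 (81.2% and 71.5%) and Eny2 (4.21% and 6.44%) were within 10 points. In SAGA 9 of 17 genes gained (52.9%, 27.8 to 77.0%, which also holds it) and none lost. With the KO list reduced to the covered length of WT 29.4% gained and 17.6% lost, against 12.8% and 12.1% of all genes. The gained genes included the acetyltransferase gene Kat2a, from 72.1% to 100%, and Tada3, from 47.8% to 79.4%.

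The enzymes linked to the mark on histone H3 showed a similar division. In the list of COMPASS and DOT1L 9 of 18 genes gained, led by Men1, from 31.1% to 99.9%, whereas Dot1l had 81.6% and 81.9%. In the Polycomb list 19 of 28 gained and 1 lost. Ring1, an H2A ubiquitin ligase gene, rose from 15.8% to 76.2% and Ezh2, the H3 methyltransferase gene, from 2.30% to 22.4%, and Phc1 fell from 54.9% to 37.2%. In the list of DNA methylation and demethylation 11 of 14 gained, such as Tet1 from 52.0% to 79.2% and Dnmt3a from 17.3% to 39.6%. With the KO list reduced to the covered length of WT, Tet1 changed by -16.8 points and Dnmt3a by -4.32. Uhrf1, which guides the maintenance methyltransferase, fell from 100% to 84.2%. Mediator had 20 of 28 genes gained and 1 lost. With the KO list reduced to the covered length of WT, the gained shares of these lists were 16.7% for COMPASS and DOT1L, 21.4% for Polycomb, 28.6% for DNA methylation and 32.1% for Mediator, against 12.8% of all genes. The lost shares were then 50%, 25%, 21.4% and 28.6%, against 12.1% of all genes, so that more genes of COMPASS and DOT1L lost than gained under this setting.

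**Figure D4:**
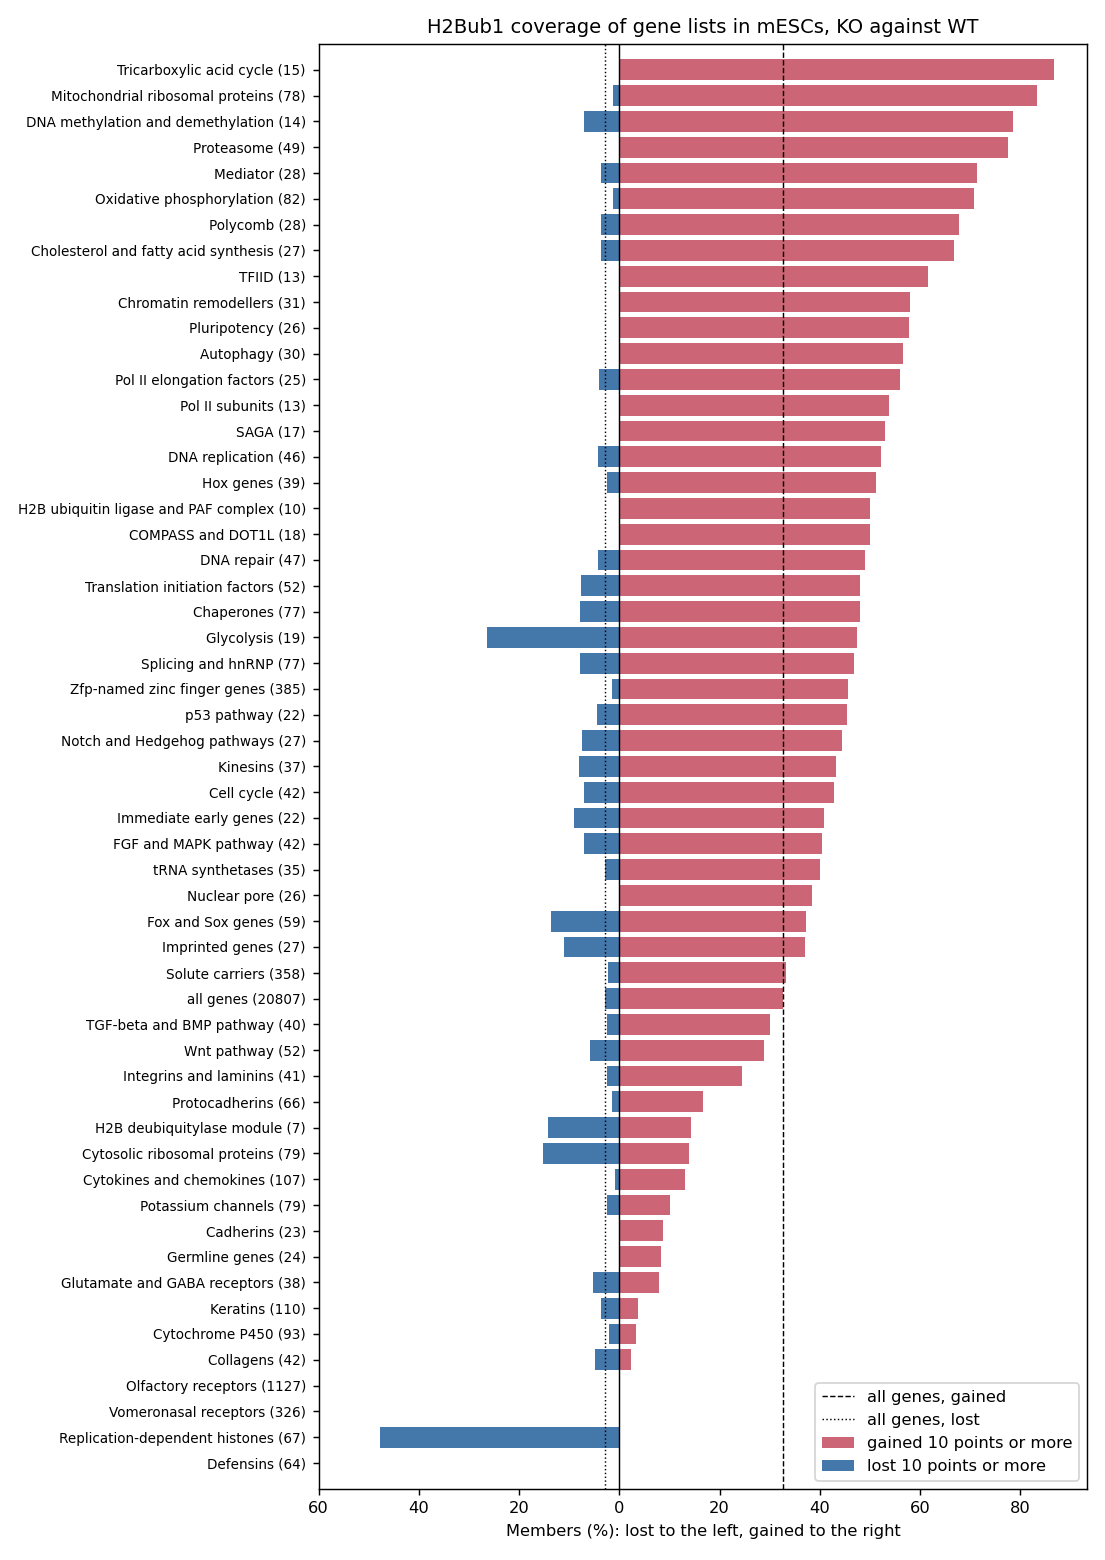
Bars give, for each gene list with its number of members in brackets, the percentage that gained (right) or lost (left) 10 points or more of covered share in KO against WT, with broken lines at the values of all genes. The tricarboxylic acid cycle heads the plot with 86.7% gained, and the replication-dependent histones have the longest bar on the left, with 47.8% lost.

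Most pluripotency genes carried a peak in both lists, and over 1 in 2 gained. Of 26 genes 24 carried a peak in WT and all in KO, 15 gained and none lost. Pou5f1 rose from 87.7% to 100%, Nanog from 81.3% to 100% and Zfp42 from 75% to 100%, while Sox2, Klf2 and Gbx2 were at 100% in both. The larger gains were at Dppa3, from 0% to 67.7%, Fgf4, from 30.7% to 93.1%, and Stat3, which transmits the signal of leukaemia inhibitory factor, from 25.5% to 71.7%. Tdgf1, a Nodal coreceptor gene, had 83.8% and 77.0%.

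Immediate early genes, which respond to growth factors within minutes, had 9 of 22 gained (40.9%, 20.7 to 63.6%) and 2 lost (9.09%, 1.12 to 29.2%), intervals that hold the values of all genes. Egr1 rose from 26.6% to 75% and Nr4a1 from 54.9% to 100%, whereas Myc fell from 87.6% to 34.3% and Egr4 from 50.3% to 33.0%. With the KO list reduced to the covered length of WT, Egr1 changed by -26.6 points instead. In the TGF-beta and BMP pathway 12 of 40 gained (30%, near the 32.7% of all genes) and 1 lost, and fewer genes had a peak in KO (26) than in WT (31). Among the gained genes, the receptor gene Acvr2b rose from 29.7% to 97.9% and the signal transducer gene Smad3 from 20.4% to 72.2%. The ligand gene Bmp4 fell from 19.7% to 0%, and Nodal was at 100% in both.

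The developmental families differed. Of the 39 Hox genes, which pattern the body axis, 10 carried a peak in WT as against 24 in KO, and 20 gained. The clusters differed: peaks passed from 1 to 6 of 11 genes at Hoxa, from 1 to 7 of 10 at Hoxb and from 4 to 9 of 9 at Hoxc, but from 4 to 2 of 9 at Hoxd. Hoxb13 passed from 0% to 96.1%, Hoxb4 from 0% to 82.7% and Hoxc12 from 24.9% to 100%, whereas Hoxd13 fell from 12.6% to 0%. With the KO list reduced to the covered length of WT, 7.69% of the Hox genes gained, against 12.8% of all genes. Of 385 zinc finger genes with Zfp names, 236 carried a peak in WT as against 319 in KO, and 176 gained (45.7%). Fox and Sox genes had 22 of 59 gained (37.3%, near the 32.7% of all genes) and 8 lost. With the reduced KO list 11.9% gained and 25.4% lost, against 12.8% and 12.1% of all genes.

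Of 27 imprinted genes 10 gained (37.0%, near the 32.7% of all genes) and 3 lost. Nnat rose from 21% to 100% and Peg3 from 0% to 23.7%. The growth inhibitor gene Cdkn1c fell from 54.0% to 14.7% and Ascl2, a placental regulator, from 47.0% to 10.1%. With peaks of a −log10 q of 3 or more alone, Ascl2 rose by 10.1 points. Collagen genes barely took part, with 1 of 42 gained (Col18a1, from 54.4% to 75%), 2 lost and peaks at 23 genes in WT and 20 in KO. With the KO list reduced to the covered length of WT, Col18a1 changed by -17.0 points. The tissue-restricted lists differed in how many of their genes carried a peak. Olfactory receptors had a peak at 3 of 1127 genes in WT and 6 in KO, vomeronasal receptors at 0 and 1 of 326, defensins at 1 and 0 of 64, and germline genes at 10 of 24 in both. Potassium channel genes carried a peak at 38 of 79 in WT as against 36 in KO, and glutamate and GABA receptor genes at 13 of 38 as against 14. Protocadherins, many of which lie in clusters with alternative first exons, were among the lists in which the 3′ part took up more, with 10.4% and 13.4% in the 5′ part and 17.1% and 31.5% in the 3′ part.

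The replication-dependent histone genes, which are short, lack introns and are transcribed in S phase, were the list with the most frequent losses. Of the 67 genes 39 carried a peak in WT and 9 did in KO, 32 lost coverage (47.8%, 35.4 to 60.3%) and none gained, against 2.96% of all genes lost. Every family took part. Peaks passed from 6 to 0 of 6 genes for H1, from 9 to 3 of 18 for H2A, from 8 to 3 of 18 for H2B, from 8 to 2 of 12 for H3 and from 8 to 1 of 13 for H4. The large cluster on chromosome 13 went from 28 to 2 of 54 genes and the smaller one on chromosome 3 from 8 to 6 of 10. At Hist1h1c, whose promoter is printed above, the share went from 100% to 0%, and so it did at Hist1h1a, Hist1h3h and Hist1h2ai. Hist2h2ab and Hist2h2ac on chromosome 3 stayed at 100%, where the fold enrichment of the peak was 3.41 (WT) and 2.57 (KO).

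Pol II peaks were present on 63 of the histone genes in WT and 60 in KO. The fold enrichment of Pol II at the promoter was lower in KO at 44 of the 60 genes with such a peak in both lists (73.3%), with medians of 17.2 in WT and 15.1 in KO, against 47.8% of the 5663 such genes overall. At Hist1h1c it was 44.9 in WT as against 22.9 in KO, and at Hist1h1a 35.8 as against 36.7. The part of Pol II in the H2Bub1 losses was not tested. In MEFs the numbers with an H2Bub1 peak went the other way, from 6 to 34. With the KO list reduced to the covered length of WT, which can only lower KO coverage, 55.2% lost, against 12.1% of all genes. With peaks of a −log10 q of at least 3, 22.4% lost, against 0.851% of all genes. The histone genes have a median GC content of 57.9%, where the class of highest GC above had a median of 54.7%. Neighbours in a cluster share peaks. Many are near-identical copies, between which reads cannot always be placed, so the value of a single histone gene is uncertain.

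**Figure D5:**
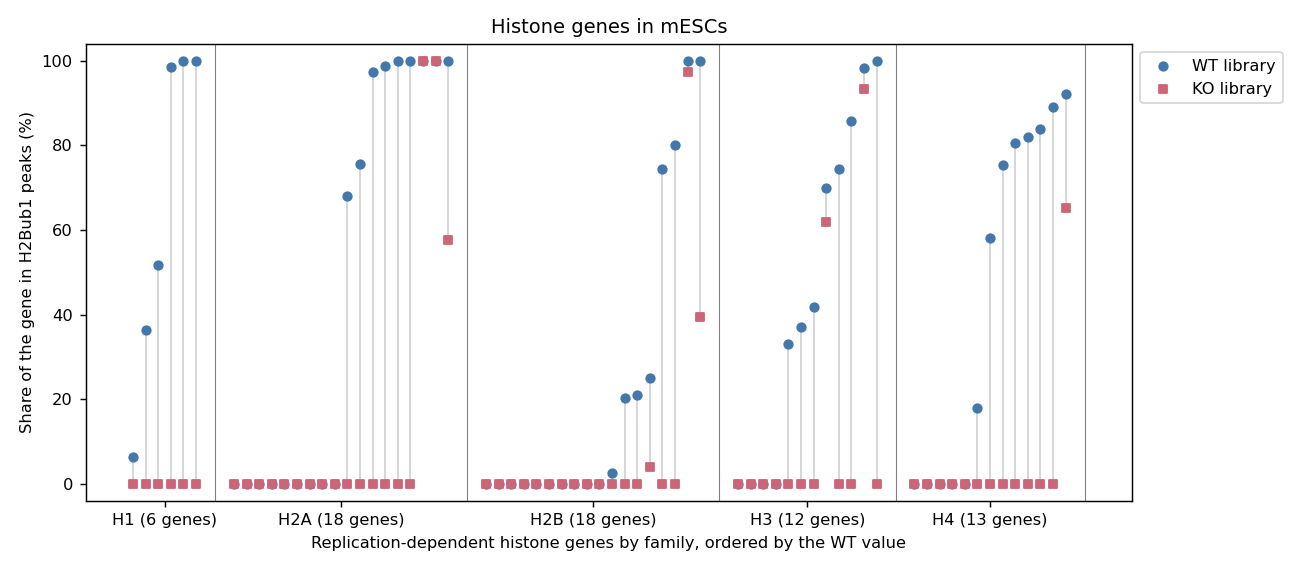
Each of the 67 replication-dependent histone genes is a pair of points, the share of the gene in H2Bub1 peaks (%) in the WT and the KO library, joined by a line and grouped by family. The KO point lies below the WT point at 37 genes and above it at none.

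Losses were most frequent at the genes with the strongest Pol II peaks at the promoter. Among the 13471 genes with no Pol II promoter peak in WT, an H2Bub1 peak was present at 36.0% in WT and 43.4% in KO, and 21.3% gained. In the class of the weakest Pol II promoter peaks, with a fold enrichment of 1.54 to 3.56, 57.8% gained (55.5 to 60%) and 4.15% lost. The gained share then went down to 51.6% from the 75th to the 90th percentile of fold enrichment and 41.7% from the 90th to the 98th. Losses were 2.63%, 2.76% and 3.54% in the classes up to the 90th percentile and 7.33% from there to the 98th. In the 147 genes of the top 2 percent, which had a median length of 3.91 kb and a GC content of 50.6%, 30.6% gained (23.3 to 38.7%) and 27.9% lost (20.8 to 35.9%), or 13.3% lost without the 49 histone genes among them. Pol II peaks were fewer in the KO list, with a peak at 43.0% of all genes in WT and 37.1% in KO, and the part of that difference in the H2Bub1 values was not tested.

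The chromosomes moved together with 1 exception. The ratio of covered bases, KO over WT, had a median of 2.21 over the 19 autosomes and lay between 1.88 (chromosome 11) and 2.50 (chromosome 3), apart from chromosome 8 with 1.61. Chromosome 8 also had fewer peaks in KO (2622) than in WT (2845), unlike any other autosome, and the lowest ratio of Pol II covered bases, 0.486 against 0.559 to 0.692 elsewhere. No input library was analysed here, so the copy number of this chromosome in the KO line was not checked. Without chromosome 8 no count or ratio for all genes moved by 1.5 times or more. Over the 19 chromosomes, which share their libraries, Spearman's rho of the ratio with GC content was -0.69. In MEFs, the ratio lay between 3.94 (chromosome 8, beside 3.95 on chromosome 5) and 6.17 (chromosome 6). There, 46.2% of all genes gained 10 points or more in KO against WT while 0.115% lost.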

How the data were processed

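According to the submitters' processing notes, reads were demultiplexed with bcl2fastq 2.17.1.14 and set against mm10 with Bowtie 1.0.0, and the authors called peaks per library with MACS2 2.1.1.20160309. Each tool is named there without its settings, and the control library and thresholds are not given in the sources used here. The study's methods name a normalization of the samples, for H2Bub1 by size factors over intergenic regions, before the peak calling, without further detail of how it entered the calls. Each deposited line holds a position, a fold enrichment over the local background as a ratio, a −log10 p, a −log10 q and an integer score that MACS2 derives for display. Scores were not used in any result. Positions and the −log10 values entered the analysis as the authors deposited them. The depth of the 2 lists is unknown, so that covered lengths and numbers of peaks may follow depth.

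Coordinates were made 1-based and set against GENCODE M21 with Python 3.11.15, numpy 2.4.6, pandas 2.3.3 and scipy 1.17.1, and plotted with matplotlib 3.10.9. A gene held a peak with 1 bp inside, and a Pol II promoter peak lay within 1000 bp of the start. Fold enrichment of a gene was averaged over its peaks by overlap. Intervals are exact at 95%, by Clopper-Pearson for percentages and from order statistics for medians. The functions were tested on simulated peaks.

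The lists and members were chosen with earlier results of these data known. Genes were named by rule: the targeted gene, the extremes of each list, the genes under the 5 widest peaks, the largest gain per length class, and the 5 strongest KO-only, WT-only and lost genes of 5 kb or longer. Other members of a list were picked as examples after their values had been seen. As alternatives, peaks were held to a −log10 q of 3 or more, the KO list was reduced to the number of peaks or to the covered length of WT by −log10 p, near peaks were joined, and isolated genes, other thresholds and fixed ends were tried. The middle class of GC content, and leaving out chromosome 8 or Gm20388, were added after seeing the data.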

Additional observations from a re-analysis of the deposited data

Results flagged for a closer look

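In 7 of 54 gene lists the number of genes with an H2Bub1 peak was lower in KO than in WT mESCs and higher in KO than in WT MEFs. Both cell types had 1 library per genotype, so this difference between them was not tested. Over all genes, a peak was present at 31.7% in WT and 54.3% in KO MEFs, against 55.7% and 62.1% in mESCs. A rise in MEFs is therefore not particular to these lists. For the replication-dependent histones the change was -30 in mESCs (39 genes in WT, 9 in KO) and 28 in MEFs (6 and 34). For the TGF-beta and BMP pathway it was -5 in mESCs (31 and 26) and 4 in MEFs (23 and 27), and for the FGF and MAPK pathway -1 (30 and 29) and 8 (17 and 25). Collagen genes had -3 (23 and 20) and 6 (9 and 15), and kinesins, the microtubule motors, -1 (33 and 32) and 12 (16 and 28). Potassium channels had -2 (38 and 36) and 11 (1 and 12), and keratins -2 (13 and 11) and 2 (0 and 2). The changes of 1 to 5 genes in mESCs are small beside those of the histones. The WT list of MEFs held fewer of the genes than the WT list of mESCs in each of these lists.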

How the results depend on the processing

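No paired analysis was possible because the labels give 1 library per group. With peaks of a −log10 q of 3 or more the ratio of covered length was 3.61 and genes in KO only were 4857, but fewer genes gained (25.5%), 115 were in WT only and 177 lost. The ratios by gene length were 2.73 under 10 kb, 3.28 to 50 kb and 4.18 beyond, those of the 5′, middle and 3′ parts 3.21, 3.13 and 2.73, and 66.8% of domains reached further downstream. The reduction of the KO list to the covered length of WT removes the overall difference by construction. It left 492 genes in KO only, 3483 in WT only, 2654 gaining and 2515 losing, ratios of 1.02 from 10 to 50 kb and 0.948 beyond, of 0.977 in the middle and 0.656 in the 3′ part, and 54.7% further downstream. In the genes 5000 bp or more from another gene the counts were 821 in KO only, 297 in WT only, 2300 gaining (23.6%) and 166 losing (1.70%), with 53.1% further downstream. In the middle class of GC content they were 373, 147, 1516 (55.9%) and 69 (2.54%), fewer because fewer genes were tested. A call at 10% of the gene body gave 3176 genes with KO coverage alone and 359 with WT coverage alone, and a threshold of 20 points 4385 gaining and 270 losing. Equal numbers of peaks, joined peaks, fixed ends and leaving out chromosome 8 or Gm20388 moved none of these counts or ratios by 1.5 times or more.

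Of the genes named, 4 turned from loss to gain with the stricter q, Ascl2 (10.1 points), Garem2 (6.98), Pla2g4b (8.55) and Ssrp1 (55.8). With the reduced KO list 8 turned from gain to loss, Col18a1 (-17.0 points), Dnmt3a (-4.32), Egr1 (-26.6), Ndufv3 (-3.86), Rptor (-13.1), Sppl2c (-4.07), Tbx6 (-6.18) and Tet1 (-16.8). The causes were not tested. Unknown depth limits all counts and lengths.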

Other observations

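Lists that the report left aside lay on both sides of the 32.7% of all genes that gained. Below it were the integrins and laminins (24.4%), the Wnt pathway (28.8%), cytokines and chemokines (13.1%), cadherins (8.70%) and cytochrome P450 genes (3.23%). Of 30 autophagy genes 17 gained (56.7%) and none lost, with a median difference of 15.5 points per gene. Of 27 genes of cholesterol and fatty acid synthesis 18 gained (66.7%) and 1 lost. Msmo1, a sterol oxidase gene, rose from 17.6% to 83.9%, Fdps, which makes farnesyl diphosphate, from 42.2% to 96.7%, and Idi1 from 0% to 59.3%, whereas Scd2, a fatty acid desaturase gene, fell from 96.4% to 83.7%. Genes of RNA polymerase II elongation were gained at 14 of 25 (56%) and lost at 1. With the KO list reduced to the covered length of WT 12% gained and 32% lost, against 12.8% and 12.1% of all genes. The negative elongation factor genes Nelfb (33.8% and 77.3%) and Nelfe (34.6% and 78.1%) rose. Ssrp1, of the histone chaperone FACT, fell from 84.3% to 72.5%, but rose by 55.8 points with peaks of a −log10 q of 3 or more alone.

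Genes of the cell cycle gained at 18 of 42 (42.9%, 27.7 to 59.0%, an interval that holds the value of all genes) and lost at 3. The D-type cyclin genes were not alike: Ccnd3 rose from 8.23% to 58.4%, Ccnd1 fell from 73.6% to 53.9%, and Ccnd2 held no peak in either list. The mitotic kinase genes Plk1 (100% and 85.6%) and Aurka (100% and 88.5%) fell, and Aurkb rose from 88.4% to 100%. Among mesoderm markers Mesp1, Hand1 and Eomes passed from 34.9%, 34.4% and 19.6% to 0%, and Tbx6 rose from 36.4% to 65.8%. With the KO list reduced to the covered length of WT, Tbx6 changed by -6.18 points.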
